A study of Mus musculus with 91 samples.

Results

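A set of 8 genes was followed in single stromal cells from the bone marrow of C57BL/6 mice: Adipoq, Lpl, Apoe, Hp, Kng1, Kng2, Agt and Gdpd2. They were chosen by name as a set of mostly secreted products of CXCL12-abundant reticular (CAR) cells with adipogenic traits, and 8 of 8 were found among the 16580 genes of the deposited count table. Earlier results of these data were known at that choice. Counts of members set beside shares over all genes therefore describe the set and are no independent support. Each of the 91 cells had a well of its own and became a separate Smart-seq2 library, which covers transcripts over their full length. All gates took cells without CD45, Ter119, CD41 and CD71, which mark blood cells, and with VCAM1, an adhesion molecule of marrow stroma. The gate labels also call these cells positive for a stain named Vibrant Dye. The VCAM1+CD61+ gate, where CD61 is the integrin beta 3 chain, held 39 cells on plates of 17 and 22 cells. The VCAM1+CD61- gate held 40 cells on plates of 24 and 16 cells, and a VCAM1+ gate not divided by CD61 held 9 cells, 8 from 1 plate and 1 from another. For 3 more cells the labels contradict each other on the gate, so they enter values over all 91 cells and no comparison between gates. The labels name no animal, age or sex, so each gate was treated as 1 sample and no test was run. Plates and gates cannot be told apart, since, apart from those 3 cells, no plate carried cells of more than 1 gate.

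CAR cells are stromal cells around marrow sinusoids that feed and retain blood stem cells through the chemokine Cxcl12. A large share of them express genes of the fat lineage without being filled with fat, while others lean towards bone, which Alpl (the mineralising enzyme alkaline phosphatase) and Spp1 (the bone matrix protein osteopontin) mark. Adipoq encodes adiponectin, a hormone otherwise known from fat tissue. Lpl encodes lipoprotein lipase, which releases fatty acids from circulating lipoproteins, and Apoe encodes apolipoprotein E, a lipoprotein ligand. Hp encodes haptoglobin, which binds free haemoglobin in plasma. Kng1 and Kng2 encode kininogens, the precursors of bradykinin, and Agt encodes angiotensinogen, the precursor of the angiotensins. Gdpd2 encodes a glycerophosphodiester phosphodiesterase in the cell membrane, so it is the member that is not a secreted protein.

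On GRCm38 with GENCODE vM21, which matches the mm10 build of the authors, the members lie on chromosomes 7, 8, 16 and X. Kng2 (chr16:22985854-23029482, minus strand), Kng1 (chr16:23057865-23082078, plus strand) and Adipoq (chr16:23146536-23158028, plus strand) lie within 172 kb of each other. Lpl (chr8:68880491-68907448), Hp (chr8:109575128-109579172) and Agt (chr8:124556534-124569706) share chromosome 8 at long distances. Apoe lies at chr7:19696109-19699188 and Gdpd2 at chrX:100729873-100738895. All 8 are annotated as protein-coding, and counts cover their exons as a whole. Kng1 and Kng2 are near copies: 26.5% of the 31-base words in Kng1 transcripts and 30.6% of those in Kng2 transcripts also occur in the other gene, so the split of reads between them is uncertain. Of the words of the other 6 members at most 3.24%, in Lpl, occur in any other gene.

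Promoter windows, 250 bases before to 50 after a start site on GRCm38.p6, were found in RefSeq for 5 members, namely Adipoq, Apoe, Kng2, Agt and Gdpd2, with 8 windows in all. They were searched on both strands for TTGCNNAA (C/EBP factors), CCCNNGGG (EBF factors), TTCNNNGAA (STAT factors) and ACANNNTGT (glucocorticoid receptor), families known in fat cell formation, marrow stroma, acute-phase responses and fat cells. The C/EBP letters were in Kng2, at position -112 from the start site, and in Gdpd2, at -216 and -77, and 10.8% of all 32851 windows held them. The STAT letters were in Agt at -172 and in 8.30% of all windows, and the EBF letters were in Apoe at -130 and, in another window, at -42, and in 13.7% of all windows. No window of the 5 members held the glucocorticoid receptor letters, which 6.85% of all windows did, and the Adipoq window held none of the 4. No 2 matches overlapped, and a match describes letters only. The 250 bases before the start site are shown for Kng2 (chr16:23029102-23029351, minus strand), Gdpd2 (chrX:100729597-100729846, plus strand) and Agt (chr8:124569707-124569956, minus strand), which hold a match in capitals, and for Adipoq (chr16:23146286-23146535, plus strand), the gene the set is named for, all 5′ to 3′ along the gene.
Kng2: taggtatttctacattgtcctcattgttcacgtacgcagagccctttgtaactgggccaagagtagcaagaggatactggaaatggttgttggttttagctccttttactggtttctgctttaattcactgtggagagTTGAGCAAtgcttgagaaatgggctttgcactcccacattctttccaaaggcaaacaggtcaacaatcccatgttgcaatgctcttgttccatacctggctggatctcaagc
Gdpd2: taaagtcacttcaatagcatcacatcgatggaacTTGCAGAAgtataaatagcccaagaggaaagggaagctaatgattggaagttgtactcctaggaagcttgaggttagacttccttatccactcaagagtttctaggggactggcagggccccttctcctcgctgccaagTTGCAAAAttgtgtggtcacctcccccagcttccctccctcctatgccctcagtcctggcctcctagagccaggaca
Agt: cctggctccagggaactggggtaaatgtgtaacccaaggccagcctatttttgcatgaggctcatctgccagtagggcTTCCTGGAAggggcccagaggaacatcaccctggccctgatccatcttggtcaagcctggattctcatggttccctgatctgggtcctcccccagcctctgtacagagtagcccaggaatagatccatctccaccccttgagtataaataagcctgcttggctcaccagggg
Adipoq: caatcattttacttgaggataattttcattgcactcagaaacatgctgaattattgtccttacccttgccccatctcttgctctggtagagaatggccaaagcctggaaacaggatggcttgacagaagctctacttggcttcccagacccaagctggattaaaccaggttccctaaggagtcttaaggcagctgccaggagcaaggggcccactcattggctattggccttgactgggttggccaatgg

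Levels are in CPM, a gene's counts over all counts of the cell on a fixed scale, so they are shares of a cell's counted RNA. Total counts per cell ran from 507713 to 6702475, and the medians of the CD61+, CD61- and VCAM1+ gates were 1887613, 2368345 and 4004927. Spearman's rho between a member's CPM and the total lay between -0.14 and 0.05 over the 91 cells. Within plates the members' median of this rho was -0.29 and -0.22 on the CD61+ plates and -0.23 and 0.34 on the CD61- plates. Markers checked the label of the cells. Of 9 CAR and niche markers 9 had counts, and their summed CPM had a median of 17650 in CD61+ cells and 30759 in CD61- cells, but 194 in VCAM1+ cells. The 5 mature fat cell markers measured (of 9 listed) summed to 100 CPM or more in 14 CD61+ cells and 8 CD61- cells. Among them, Plin1, of the lipid droplet, stood at 0.913 CPM in summed CD61+ cells and 0.708 in CD61- cells, Fabp4 at 695 and 158, and Car3, a carbonic anhydrase gene, at 355 and 38.9. Adrb3 and Retn went the other way, at 1.15 and 5.38 CPM and at 0.117 and 0.403. Fabp4 was counted in 3 CD61+ and 6 CD61- cells only, and its plates overlapped. Blood cell markers summed to 100 CPM or more in 11 CD61+ cells, 4 CD61- cells and 2 VCAM1+ cells, and endothelial markers in 5, 2 and 5. A stricter sum of Cdh5, Ptprc, Laptm5 and Coro1a did so in 2, 3 and 1 cells. Of 7 listed hepatocyte markers, which would bear on Hp, Kng1 and Agt as liver products, 0 could be matched, so they were not analysed here. In bulk sums, fewer cells with a transcript and less transcript per cell cannot be told apart, so summed levels are given beside levels per cell.

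All 8 members were lower in CD61+ cells than in CD61- cells. In summed counts, the higher CD61+ plate lay below the lower CD61- plate for 8 of 8, where 17.8% of the 14063 genes tested did so. With a set chosen when earlier results were known, that contrast is a description. Without the cells at 100 CPM of the blood cell or endothelial markers, a setting added after seeing the data, 24 CD61+ and 35 CD61- cells were left and 7 of 8 members kept plates apart. The exception was Agt, at 504 and 1052 CPM on the CD61+ plates against 856 and 1049 on the CD61- plates. The median log2 ratio of CD61+ over CD61- was -1.09 over the members, with a range of -1.91 to -0.75, and 0.01 over all genes tested. Lpl and Hp showed the widest gaps and Agt and Gdpd2 the narrowest. Intervals of ratios and levels below are exact 95% intervals for counting error alone, and Smart-seq2 reads without molecular identifiers are not independent molecules.

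**Figure D1:**
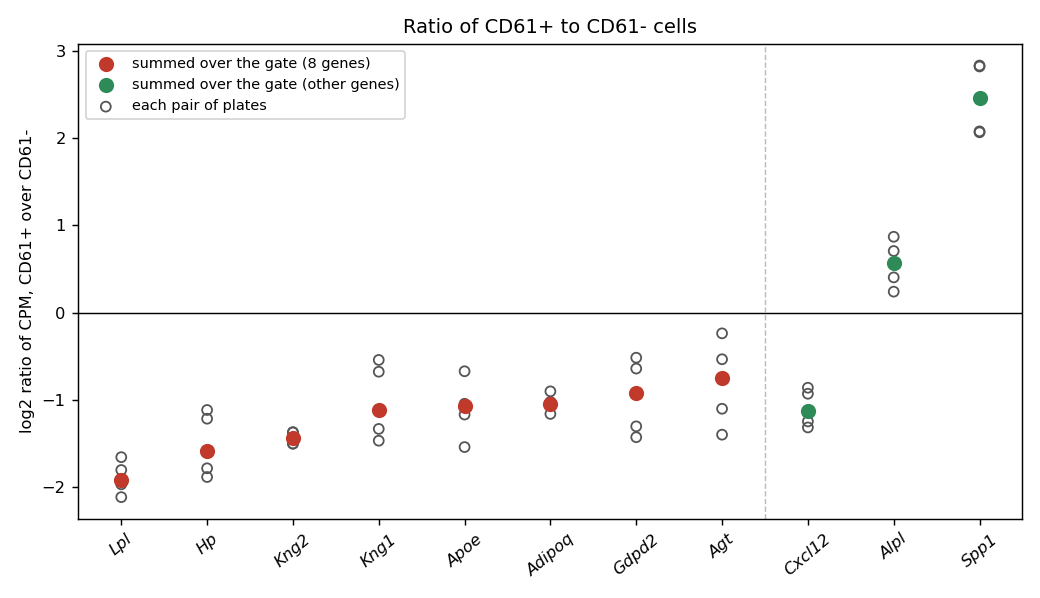
Log2 ratio of CPM, CD61+ over CD61- (vertical axis), for each of the 8 genes and for Cxcl12, Alpl and Spp1 (horizontal axis). Filled points are summed over the gate and open points are the 4 pairs of plates; all open points of the 8 genes lie below 0, from Lpl at -2.11 up to Agt at -0.24.

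Adipoq showed the sharpest divide among cells. Its CPM in CD61+ cells had a lowest value of 0, a median of 0 and a highest value of 7084, and in CD61- cells a lowest value of 0, a median of 2408 and a highest value of 6658. So the highest cells of both gates were alike in level, while the medians were far apart. A count of Adipoq was found in 17 of 39 CD61+ cells, or 43.6% (Clopper-Pearson interval 27.8 to 60.4), and 36 of 40 CD61- cells, or 90.0% (76.3 to 97.2), and thinning all cells to 507713 counts left both shares as they were. By plate, the medians were 0 and 0 CPM on the CD61+ plates and 2559 and 1042 on the CD61- plates, so the plates of the gates did not overlap in this value. Summed, Adipoq stood at 1216 CPM (1208 to 1224) in the CD61+ gate and 2504 (2494 to 2514) in the CD61- gate, a log2 ratio of -1.04, and -1.16 to -0.90 between pairs of plates. The mean of CPM over cells gave a smaller gap, 1568 against 2467, a log2 ratio of -0.65. Of the 59 cells with any Adipoq count, 54 reached 10 CPM, and 5 had only 0.166 to 6.36 CPM.

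Of the lipid genes, Lpl had the largest gap of the set. Its CPM ran from 0 with a median of 429 to a highest value of 7048 in CD61+ cells, and from 0 with a median of 3798 to a highest value of 9145 in CD61- cells. Plate medians of Lpl were 891 and 216 against 4123 and 2131, so both CD61+ plates lay below both CD61- plates although single cells overlapped. Summed, Lpl was 3.76-fold lower in CD61+ cells, at 964 CPM (957 to 971) against 3628 (3616 to 3640). Its share of cells depended on the lowest counts: 82.1% of CD61+ cells and 97.5% of CD61- cells had a count, but 61.5% and 92.5% reached 10 CPM. Apoe CPM had a median of 1132 and a highest value of 11724 in CD61+ cells, against a median of 4634 and a highest value of 14398 in CD61- cells, with 0 as the lowest value in both. It was summed at 2215 CPM (2204 to 2225) against 4630 (4616 to 4644), a log2 ratio of -1.06 that ran from -1.54 to -0.67 between pairs of plates. Apoe also occurred in cells with genes of other types: it reached 10 CPM in 5 of the 6 cells with 100 CPM of Cdh5, Ptprc, Laptm5 and Coro1a together, with a median of 1720 CPM, whereas the other 7 did so in 1 to 3 of them.

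Hp, the plasma protein gene, reached the highest single-cell level of the set, 32144 CPM in a CD61- cell. Its median was 535 CPM in CD61+ cells, with 0 and 9187 as the lowest and highest values, and 4196 CPM in CD61- cells, with 0 as the lowest. Plate medians of Hp were 1103 and 275 against 5632 and 3007, again without overlap between the gates' plates. Summed, Hp was at 1823 CPM (1813 to 1833) in the CD61+ gate against 5462 (5447 to 5477) in the CD61- gate, and without CD61- plate 1 the log2 ratio was -1.16 in place of -1.58. A count was found in 71.8% of CD61+ cells and 92.5% of CD61- cells.

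The kininogens moved alike, within the uncertain split of their reads. Kng1 had a median of 309 CPM and a highest value of 2797 in CD61+ cells, against a median of 872 and a highest value of 3240 in CD61- cells. Kng2 had a median of 59.7 CPM and a highest value of 2503 in CD61+ cells, against a median of 592 and a highest value of 2522 in CD61- cells. Both genes thus reached similar top levels in both gates, but in CD61+ cells both top values came from the same cell. The next highest values in CD61+ cells were 1857 CPM for Kng1 and 1318 for Kng2. Both genes went down to 0 in each gate. In summed counts Kng1 was at 419 CPM (415 to 424) against 906 (899 to 912), and Kng2 at 260 CPM (257 to 264) against 703 (697 to 708). The log2 ratio of Kng2, -1.43, held within -1.50 to -1.37 between pairs of plates, the narrowest range of the 8 members. That of Kng1, -1.11, ran from -1.47 to -0.54, and was -0.61 without CD61- plate 1, where Kng1 stood at 1104 CPM against 638 on the other CD61- plate.

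Agt, the angiotensin precursor, was the least different member and the least even between plates. It had a median of 413 CPM and a highest value of 2496 in CD61+ cells, against a median of 844 and a highest value of 2203 in CD61- cells, with 0 as the lowest value in both. The plates ran 384 and 699 CPM in summed CD61+ counts against 824 and 1012 in CD61- counts, so the nearest pair of plates was only -0.24 apart on the log2 scale and the widest -1.40. Over the gates, Agt was at 539 CPM (534 to 544) against 904 (898 to 910). Gdpd2 behaved likewise, with a median of 381 CPM and a highest value of 3702 in CD61+ cells, against a median of 738 and a highest value of 3957 in CD61- cells. Its sums were 598 CPM (593 to 604) against 1129 (1122 to 1136), with 441 and 761 on the CD61+ plates and 1088 and 1186 on the CD61- plates. Plate medians of Gdpd2 were 441.9 and 374.8 CPM against 949.3 and 441.2, so the plates of the gates overlapped in this value. Gdpd2 was also the member with the widest reach in CD61+ cells, with a count in 84.6% of them and in 95.0% of CD61- cells, where Agt had 74.4% and 95.0%.

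**Figure D2:**
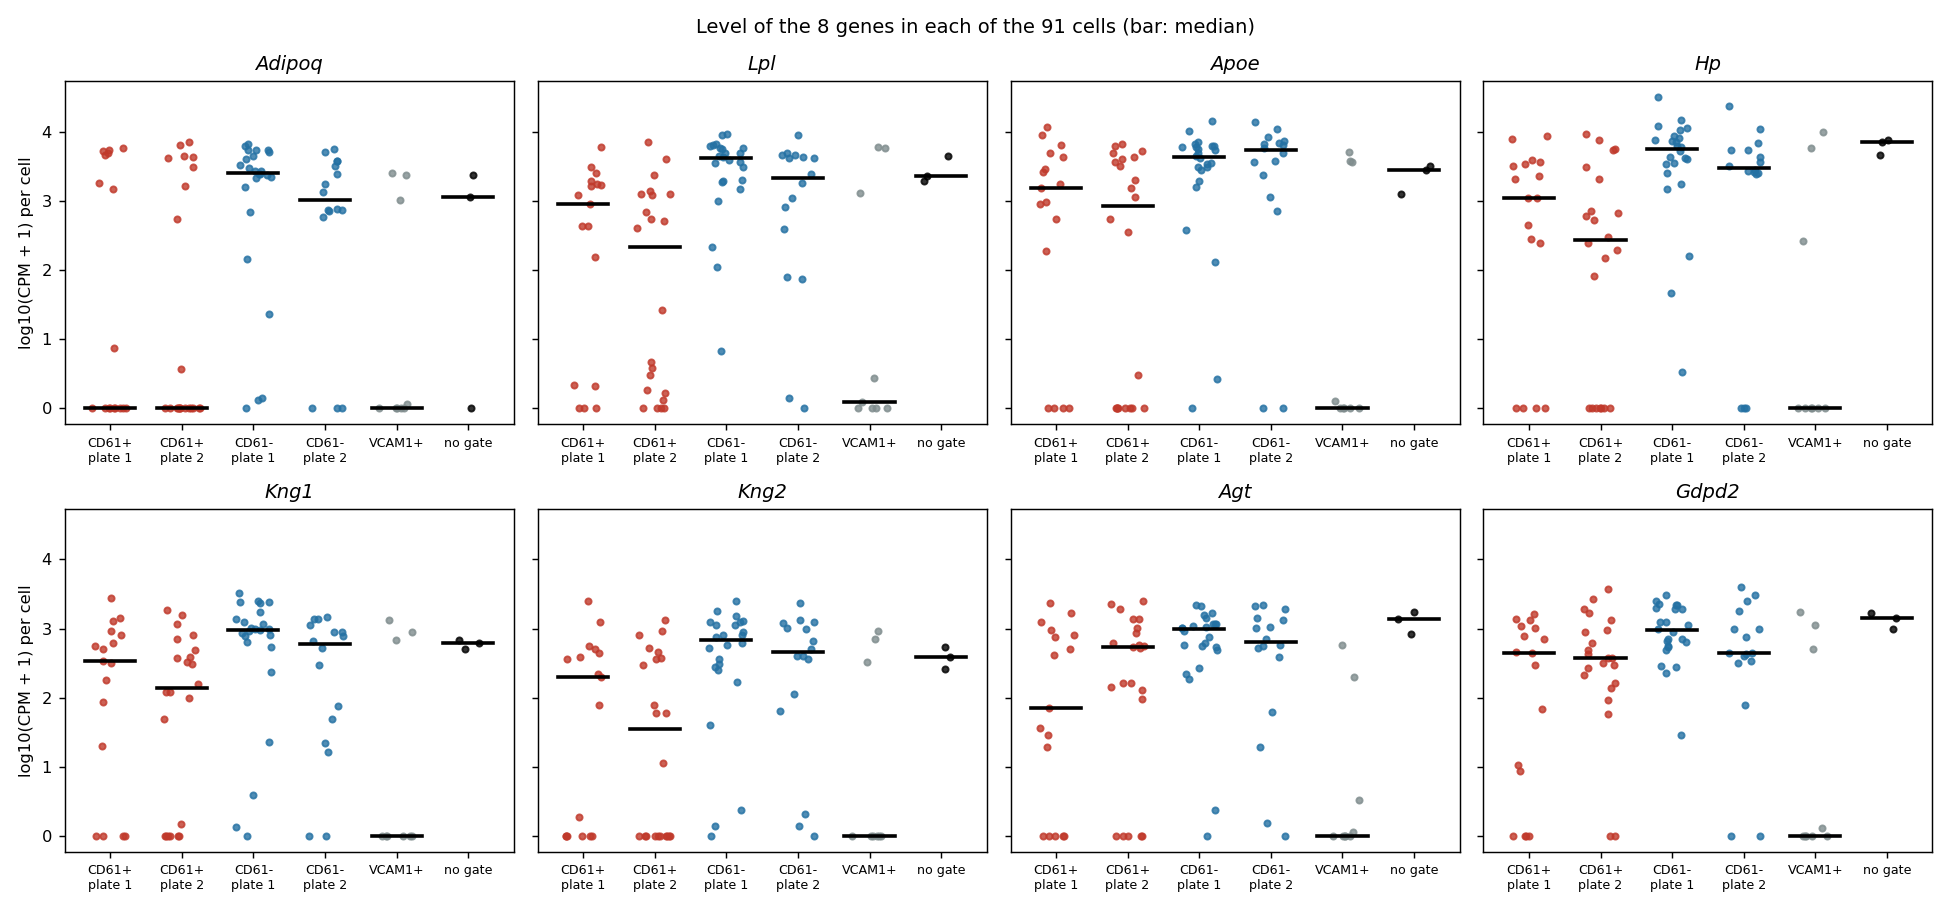
Level of each of the 8 genes in every cell, as log10(CPM + 1) on the vertical axis, by gate and plate on the horizontal axis, where "no gate" stands for the 3 cells with conflicting labels. Each point is 1 cell and the bar is the median; Adipoq medians are 0 CPM on both CD61+ plates and 2559 and 1042 CPM on the CD61- plates.

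To set the members against each other, summed CPM was divided by the length of the longest annotated transcript. In CD61- cells Hp was highest at 4061 CPM per kb and Apoe followed at 3289, then Adipoq at 1938 and Lpl at 882. Below these lay Agt at 478, Kng1 at 402, Gdpd2 at 395 and Kng2 at 306 CPM per kb, and Cxcl12 stood at 3894 on the same scale. In CD61+ cells the order began with Apoe at 1573 CPM per kb, ahead of Hp at 1355 and Adipoq at 941, while Agt (285) lay above Lpl (234). The plates did not keep apart all neighbours in this order. On the CD61- plates Hp (4823 and 3035) overlapped with Apoe (2922 and 3783), and Kng1 (489.5 and 283) overlapped with Agt (436 and 535), Gdpd2 (381 and 415) and Kng2 (306 and 307). On the CD61+ plates Apoe (1835 and 1301) overlapped with Hp (1402 and 1307), and Agt (203 and 370) with Lpl (246 and 222) and Gdpd2 (154 and 266). With the length of all exons joined, Lpl fell to 346 CPM per kb in CD61- cells, under Agt. On either length the Hp, Apoe and Adipoq transcripts led the set in both gates.

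Among the 9 VCAM1+ cells the members were nearly all present or all absent. At 10 CPM, 6 cells had none of the 8, 2 had all 8 and 1 had 7. The 2 cells with all 8 had Adipoq at 1040 and 2500 CPM, Lpl at 5923 and 5849 CPM and Cxcl12 at 32107 and 24277 CPM. The cell with 7 had Adipoq at 2362 CPM, Lpl at 1293 CPM and Cxcl12 at 14187 CPM but Agt at only 2.36 CPM. These levels lay within the range of CD61- cells. The other 6 cells had at most 0.166 CPM of Adipoq, 1.79 CPM of Lpl and 26.7 CPM of Cxcl12. In this gate, summed endothelial markers reached 100 CPM in 5 of 9 cells and summed fibroblast markers in 6 of 9, where 5 and 29 of 39 CD61+ cells and 2 and 24 of 40 CD61- cells did. Summed osteolineage markers did so in 6 of 9 VCAM1+ cells, with a highest value of 449709 CPM, and in 38 CD61+ and 36 CD61- cells. A VCAM1+ cell without members had Spp1 at 3349 CPM and Alpl at 170 CPM. The part of those cell types in the members' levels was not tested.

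Members were found together in single cells across the 3 gates. Of 91 cells, 48 (52.7%) had all 8 members at 10 CPM or more, 60 had 6 to 8, and 7 had none. In CD61+ cells 20 of 39 (51.3%, interval 34.8 to 67.6) had 6 to 8 members, and in CD61- cells 34 of 40 (85.0%, interval 70.2 to 94.3). All 8 were present in 13 CD61+ cells and 31 CD61- cells. The summed level of the 8 had a median of 4076 CPM in the CD61+ gate and 20431 in the CD61- gate, or 0.408% and 2.04% of a cell's counts. On the plates these medians were 7139 and 2153 CPM for CD61+ and 22326 and 19381 for CD61-.

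Cells with an incomplete set lost the members in an uneven way. There were 20 cells with 2 to 5 members, 15 CD61+ and 5 CD61-, and 19 of the 20 had Spp1 at 10 CPM or more. Gdpd2 was present in 18 of them and Agt in 15, then Hp in 10, Kng1 in 9, Apoe in 7, Lpl in 6 and Kng2 in 4. Adipoq was present in 0 of these 20 cells, which allows a share of up to 15.0%. Since the cells were chosen by how many members they had, these counts describe the cells and support no difference between the genes.

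**Figure D3:**
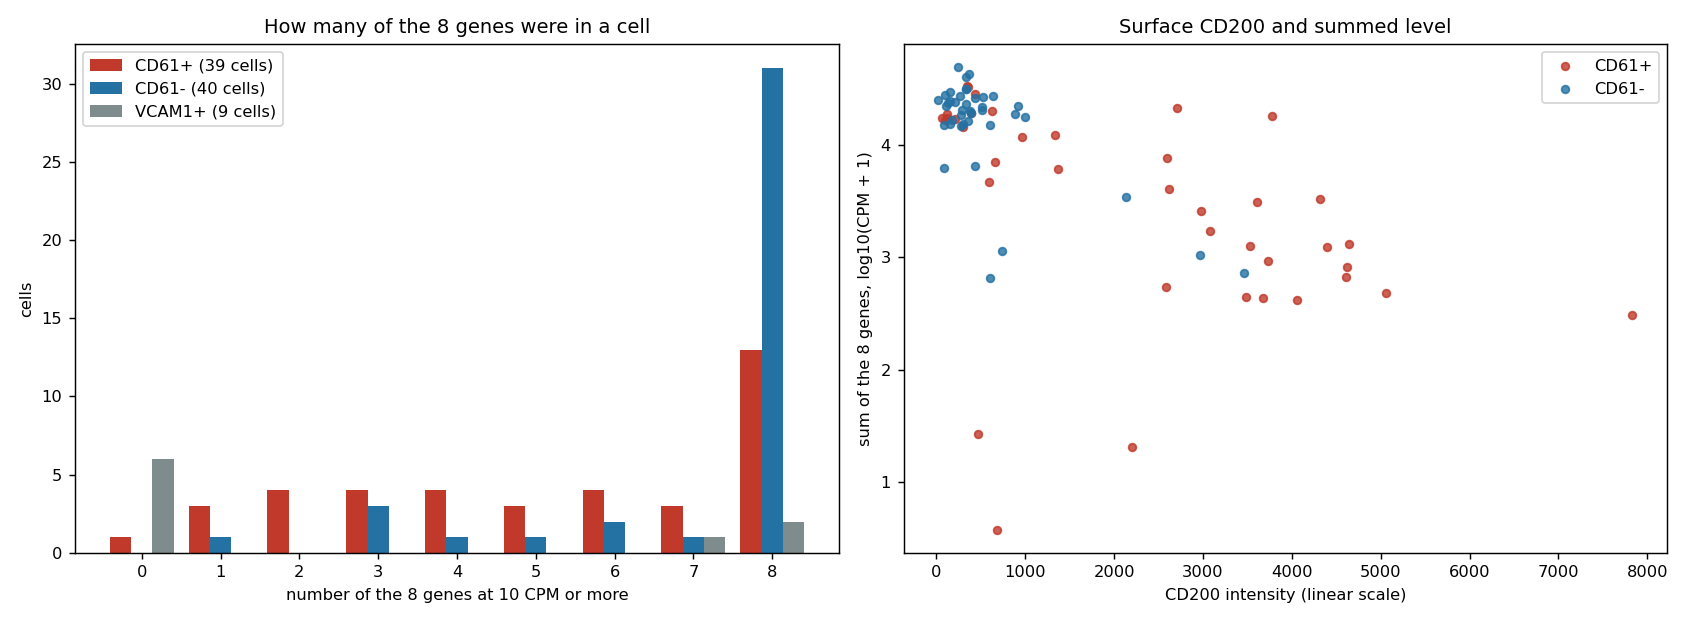
Left: number of cells (vertical axis) by how many of the 8 genes they had at 10 CPM or more (horizontal axis), for CD61+, CD61- and VCAM1+ cells; 13 CD61+ and 31 CD61- cells had all 8. Right: summed level of the 8 genes as log10(CPM + 1) against surface CD200 intensity of the same cell, on a linear scale; cells with the highest CD200 lie low on the vertical axis.

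Co-expression was described by Spearman's rho over cells, which share libraries prepared on the same plates, so no p is given. Over the 91 cells, the 28 pairs of members had a median rho of 0.66 and a range of 0.44 (Apoe with Gdpd2) to 0.80 (Lpl with Kng2). Of these pairs 27 had a rho of 0.5 or more. For Adipoq, 7 of 7 other members were at or above 0.5, where 1.07% of the 9742 other genes with a count in at least 20% of cells were. The same held for 7 of 7 with Lpl (background 1.43%), Hp (1.01%), Kng1 (1.24%), Kng2 (1.24%) and Agt (0.79%), and for 6 of 7 with Apoe (0.657%) and Gdpd2 (0.636%). Because the members were picked as products of 1 cell type with earlier results known, these counts give no independent support for co-expression. Within plates the median over the 28 pairs was 0.63 and 0.73 on the CD61+ plates and 0.36 and 0.47 on the CD61- plates. So rho was lower on both CD61- plates than on both CD61+ plates. Among the 64 cells with Cxcl12 at 1000 CPM or more, a threshold chosen after seeing the data, the median was 0.37, with Lpl and Hp the closest pair at 0.62 and Apoe and Gdpd2 at -0.00.

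**Figure D4:**
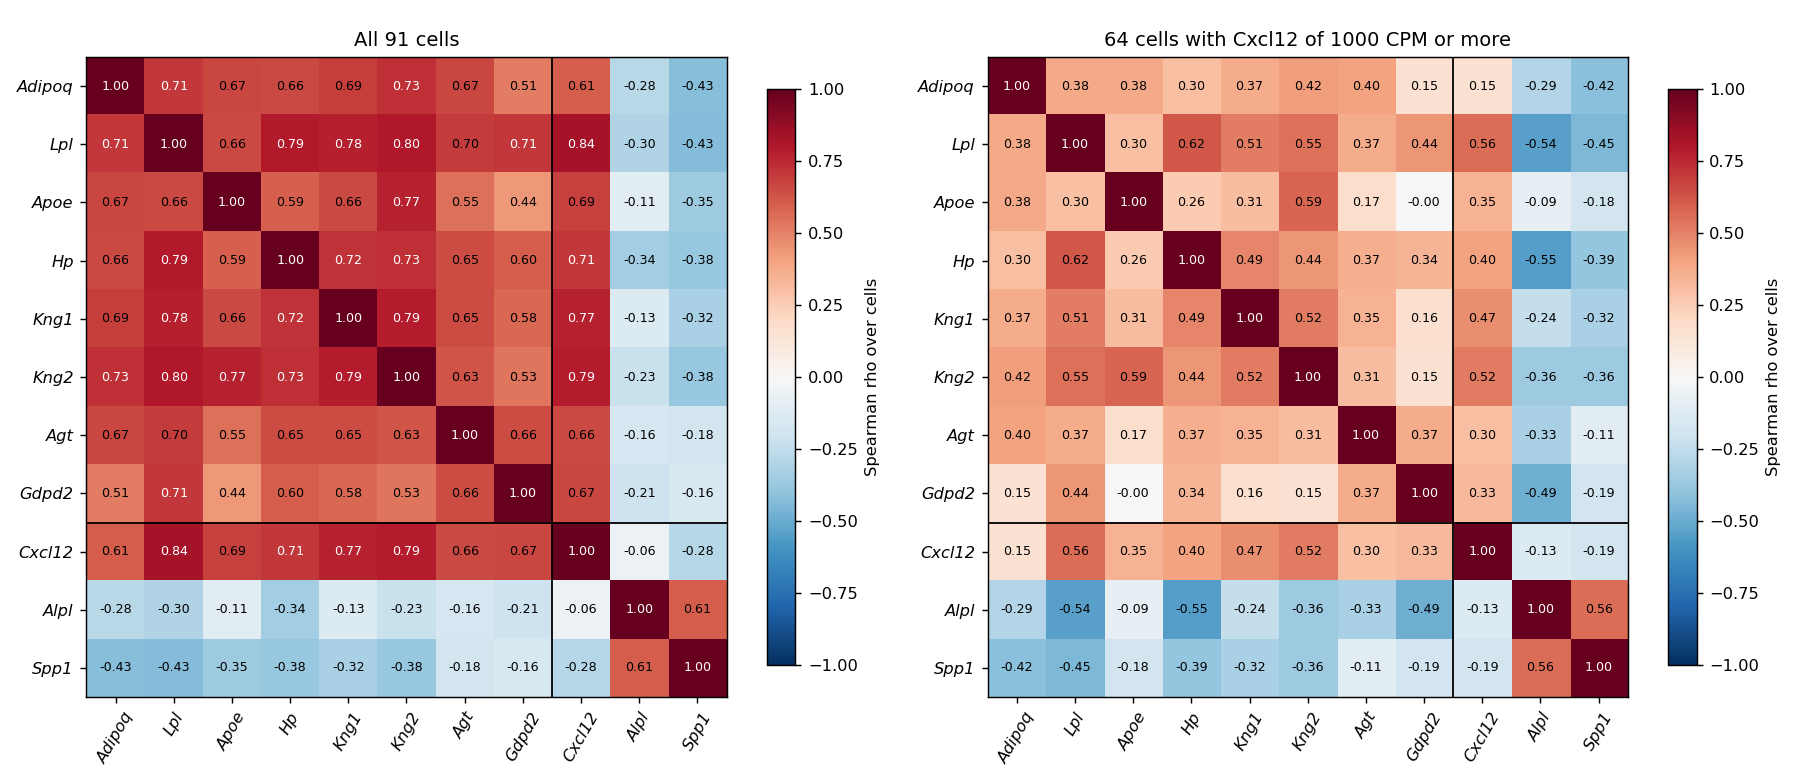
Spearman's rho between the 8 genes, Cxcl12, Alpl and Spp1, with genes on both axes and rho as colour and number, over all 91 cells (left) and over the 64 cells with Cxcl12 at 1000 CPM or more (right). The block of the 8 genes has a median rho of 0.66 on the left and 0.37 on the right.

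Every member had a positive rho with Cxcl12 over the whole set of cells. Over 91 cells rho with Cxcl12 was 0.84 for Lpl, 0.79 for Kng2, 0.77 for Kng1, 0.71 for Hp, 0.69 for Apoe, 0.67 for Gdpd2, 0.66 for Agt and 0.61 for Adipoq. All 8 were at or above 0.5, where 1.21% of the 9742 genes were, and the median over those genes was 0.03. As the set was picked as CAR cell products, that count describes it only. Within plates the members' median was 0.58 and 0.66 on the CD61+ plates and 0.51 and 0.64 on the CD61- plates, with 1 negative value, -0.04, on CD61- plate 2. Adipoq had the lowest rho of the 8 over the 91 cells. Of 54 cells with Adipoq at 10 CPM, 54 had Cxcl12 and 0 lacked it, which allows up to 5.56% of them. The reverse did not hold, as 24 cells had Cxcl12 without Adipoq, 17 of them CD61+ and 5 CD61-. Cxcl12 reached 10 CPM in 78 of all 91 cells (85.7%). It was also in 66 of 67 cells with Lpl and 65 of 68 with Apoe, so its presence was not particular to Adipoq. In the 64 cells rich in Cxcl12, where Cxcl12 itself varies less, rho was 0.56 for Lpl and 0.52 for Kng2 but 0.15 for Adipoq.

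Within those Cxcl12-rich cells, 23 CD61+ and 35 CD61-, the gap between the gates narrowed to different degrees. Median Lpl was 1258 CPM for CD61+ and 4225 for CD61-, and median Hp 2261 and 4274. On the plates, summed Lpl was 1937 and 1880 CPM against 4286 and 3739, so the gates stayed apart. Kng2 (527 and 505 against 755 and 823) and Adipoq (2262 and 2613 against 2820 and 2740) also kept their plates apart in summed counts. The other 5 members overlapped: Hp stood at 3606 and 3479 against 7027 and 3472 CPM, and Agt at 723 and 1271 against 883 and 1187. So 3 of 8 members were lower in both CD61+ plates among these cells, where 14.9% of 12866 genes were. The log2 ratio of summed counts was -1.09 for Lpl, -0.65 for Hp and -0.60 for Kng2. For the other 5 it was smaller, at -0.31 for Kng1, -0.30 for Gdpd2, -0.30 for Apoe, -0.20 for Adipoq and -0.03 for Agt. Median Adipoq in these cells was 1792 CPM for CD61+ and 2451 for CD61-, and median Agt 813 and 1026. By plate, median Adipoq was 1792 and 2356 CPM for CD61+ against 2712 and 1731 for CD61-, so the plates overlapped in this value. In these gate sums the 8 kept the sign of the whole gates, and no test of a difference between the members was run.

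Relations to Alpl were weaker. Over 91 cells rho ran from -0.34 for Hp to -0.11 for Apoe and was below 0 for 8 of 8 members, as it was for 29.1% of the 9742 genes. At 10 CPM, 19 cells had both Adipoq and Alpl, 35 Adipoq alone and 25 Alpl alone. By gate, 11 of the 15 CD61+ cells with Adipoq also had Alpl, against 8 of the 34 CD61- cells with Adipoq, where Alpl was present in 30 of all 39 CD61+ cells and 12 of all 40 CD61- cells. The sign was not even within plates: members with a rho below 0 numbered 5 and 8 of 8 on the CD61+ plates and 7 and 6 on the CD61- plates. It also turned for Gdpd2 by Pearson's r on log2(CPM + 1), at 0.04, and for Apoe without CD61+ plate 2, at 0.01. In the 64 Cxcl12-rich cells rho was further below 0 for some members, at -0.55 for Hp, -0.54 for Lpl and -0.49 for Gdpd2. It was -0.36 for Kng2, -0.33 for Agt and -0.24 for Kng1. Adipoq hardly differed, at -0.29 against -0.28 over 91 cells, and Apoe was at -0.09.

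Against Spp1, Lpl and Adipoq lay at one end and Gdpd2 at the other. Over 91 cells the Spearman coefficient with Spp1 was -0.43 for Lpl, -0.43 for Adipoq, -0.38 for Kng2, -0.38 for Hp, -0.35 for Apoe, -0.32 for Kng1, -0.18 for Agt and -0.16 for Gdpd2. It was below 0 for 8 of 8, where it was for 37.7% of the 9742 genes. On the plates the members' median was -0.51 and -0.63 for CD61+ and -0.23 and 0.03 for CD61-, with 4 of 8 positive on CD61- plate 2, and for Gdpd2 Pearson's r on log2(CPM + 1) was 0.02. Spp1 itself stood at 67350 CPM in summed CD61+ counts and 12267 in CD61- counts, and in single cells it took up to 330812 CPM, which lowers the CPM of all other genes in that cell.

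The 18 cells with Spp1 at 10000 CPM or more, 15 CD61+ and 3 CD61-, held almost none of the hormone transcript. Adipoq reached 10 CPM in 0 of 18, which allows up to 16.7%, and its highest value there was 2.74 CPM. This threshold was not among the planned settings, and below it both transcripts occurred in the same cell. A CD61- cell had Spp1 at 8477 and Adipoq at 2677 CPM, and a CD61+ cell had 4158 and 1640. At 10 CPM, 19 of all 91 cells had both. Lpl and Kng2 each reached 10 CPM in 3 of the 18, Apoe in 6, Kng1 in 8, Hp in 9 and Agt in 13. Gdpd2 reached it in 16, with a median of 343 CPM and a highest value of 949. Cxcl12 did so in 13 of them and Alpl in 15. Over all 91 cells, 10 CPM was reached by Gdpd2 in 75 (82.4%), Agt in 70 (76.9%) and Adipoq in 54 (59.3%). Hp did so in 70 of them, Kng1 in 69, Apoe in 68, Lpl in 67 and Kng2 in 62. The 18 cells thus had Gdpd2 and Agt at 10 CPM about as often as all cells did, and none had Adipoq at that level. Their levels were lower, however. Median Agt was 112.5 CPM in the 18 cells and 567.3 over all 91, and median Gdpd2 was 343 and 536.5.

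**Figure D5:**
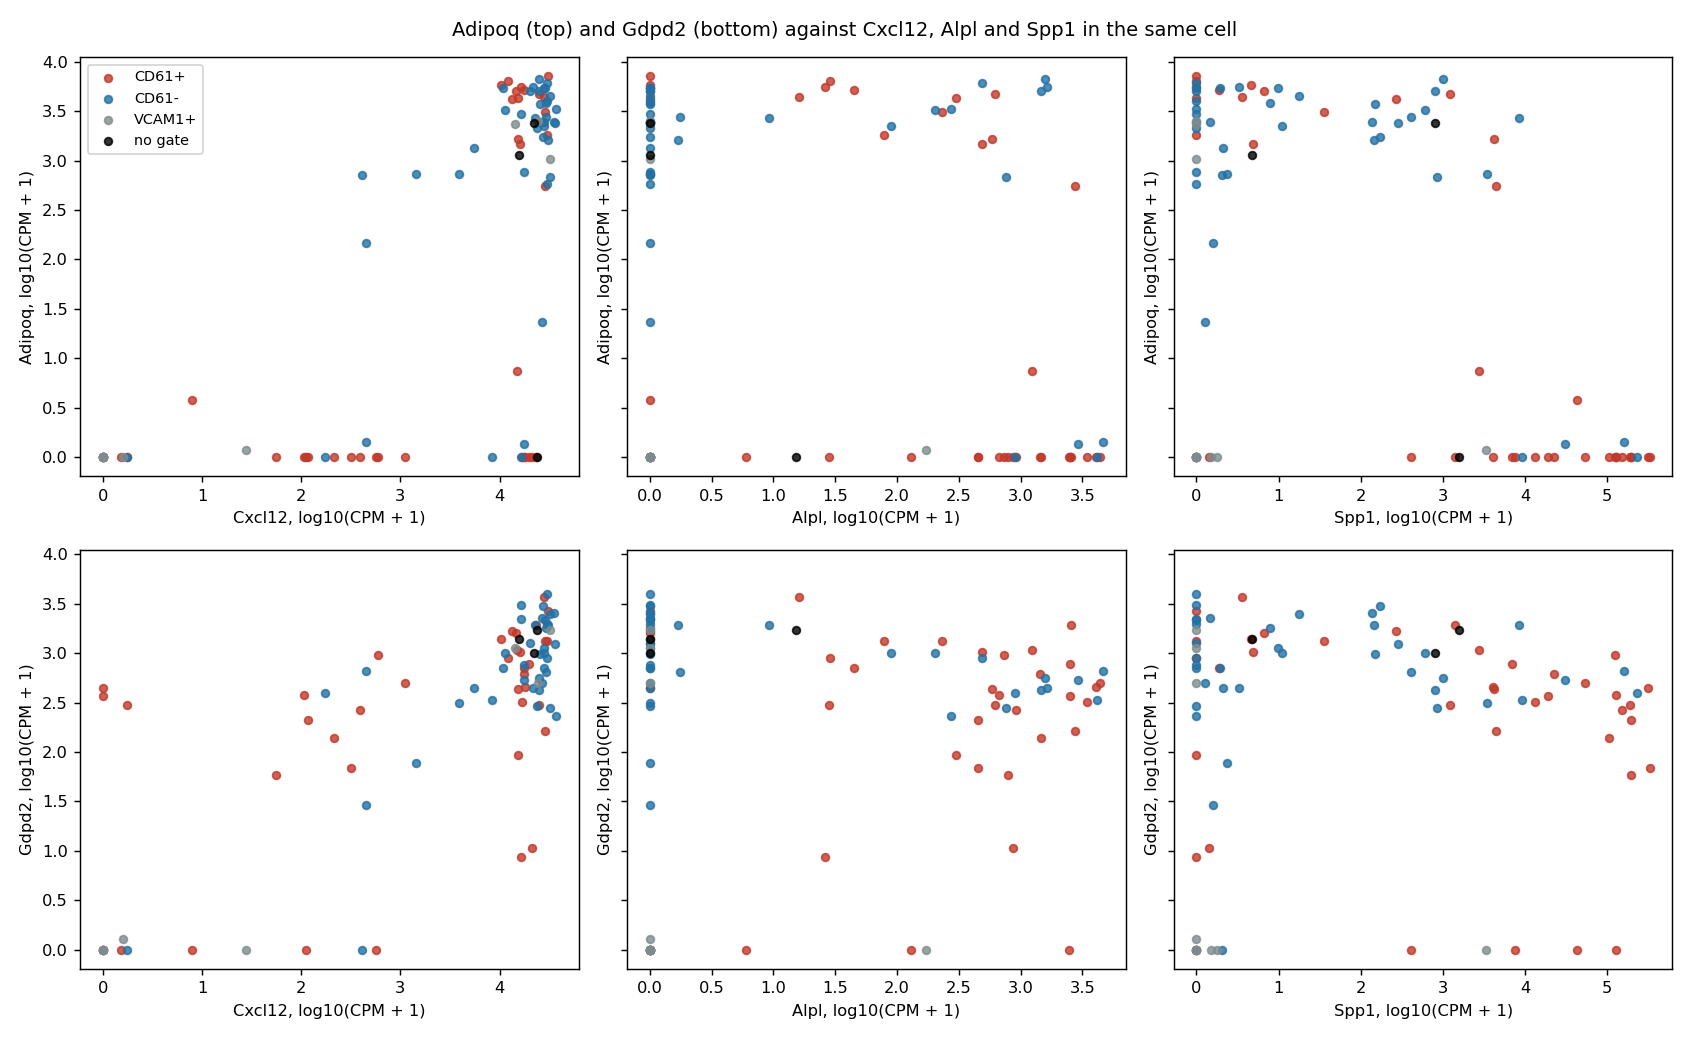
Adipoq (top) and Gdpd2 (bottom), vertical axes, against Cxcl12, Alpl and Spp1 (left to right), horizontal axes, in each of the 91 cells, all as log10(CPM + 1). Each point is 1 cell coloured by gate. Of the 18 cells with Spp1 at 10000 CPM or more, 0 have Adipoq at 10 CPM, while 16 have Gdpd2, as do 75 of all 91 cells.

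Surface proteins recorded at the sort gave a readout independent of the counts. Within CD61+ cells rho between CD200 intensity and a member's CPM was -0.74 for Adipoq, -0.71 for Lpl, -0.61 for Hp, -0.57 for Kng1, -0.57 for Apoe, -0.55 for Kng2, -0.49 for Agt and -0.38 for Gdpd2. All 8 were below 0, where 46.8% of 9743 genes were, and all 8 were so on both CD61+ plates, with medians of -0.54 and -0.65. Within CD61- cells, few of which had high CD200, rho was between -0.40 (Hp) and -0.01 (Kng2), below 0 for 8 of 8, where 28.2% of the genes were, but on CD61- plate 2 it was above 0 for Apoe (0.11) and Kng2 (0.03). For CD51, the integrin alpha V chain that pairs with CD61, rho was below 0 for 8 of 8 members in CD61+ cells, with a median of -0.40 and a background of 44.5%. In CD61- cells it was below 0 for 2 of 8, with a median of 0.10 and a background of 36.7%. Forward scatter, which rises with cell size, had a median rho of -0.28 in CD61+ cells, below 0 for 8 of 8 against a background of 43.6%, and 0.00 in CD61- cells, below 0 for 4 of 8 against 47.2%. On CD61- plate 2 alone it was above 0 for 8 of 8, from 0.09 to 0.65 with a median of 0.32, while on both CD61+ plates it was below 0 for 8 of 8. In CD61+ cells, higher members thus went with lower CD200, lower CD51 and smaller scatter.

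The genes most like Adipoq over the 91 cells, by rho among genes counted in at least 20% of cells, were Nnmt, a methyltransferase of nicotinamide, at 0.71 and the matrix protein gene Ltbp2 at 0.71. They were followed by Esm1 at 0.71, Gprin3 at 0.71, Chrdl1, an inhibitor of bone morphogenetic proteins, at 0.70, and the taurine transporter gene Slc6a6 at 0.69. Ms4a4d (0.68), the transferrin gene Trf (0.67), the chemerin gene Rarres2 (0.65) and the cholesterol esterifying enzyme gene Soat1 (0.64) closed the 10. All 10 had a positive rho on each of the 4 plates, from 0.13 for Rarres2 on CD61- plate 2 to 0.87 for Ltbp2 on CD61+ plate 1. The most opposite were the monoglyceride lipase gene Mgll at -0.61, the collagen gene Col6a3 at -0.58, the carboxypeptidase gene Cpe at -0.58, Mef2c at -0.57 and the osteocalcin-like gene Bglap3 at -0.56. For the other members the nearest genes recurred: Cxcl12 was among the 3 nearest of Lpl, Apoe, Kng1, Kng2 and Gdpd2. Chrdl1 was among those of Lpl, Hp and Gdpd2. Gpx3, a secreted glutathione peroxidase, led for Lpl at 0.84 and Hp at 0.81. Esm1 led for Kng1 at 0.77, Clu (clusterin) for Gdpd2 at 0.69 and the class I histocompatibility gene H2-K1 for Agt at 0.72.

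Position on chromosome 16 was set beside the levels of the Kng2 to Adipoq stretch. The table holds 5 genes there, the 3 members and, between Kng1 and Adipoq, Eif4a2 and Rfc4. Eif4a2, a translation factor gene, stood at 112 CPM in the CD61+ gate and 117 in the CD61- gate, with a rho of 0.23 with Adipoq. Rfc4, a DNA replication gene counted in 13 cells, was at 33.4 against 11.5 CPM, with a rho of -0.07. Adipoq had a rho of 0.69 with Kng1 and 0.73 with Kng2, and 0.71 with Lpl on chromosome 8.

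Other genes of the members' pathways were read from lists made for this set. Genes lower in both CD61+ plates (17.8% of all tested) and higher in both (20%) are counted for each list. Of 20 tested adipogenic factors and lipid genes, 6 were lower and 2 higher, with a median log2 ratio of -0.46. Cebpd, a C/EBP factor, was at 123 CPM in the CD61+ gate and 372 in the CD61- gate, and Ebf1, an early stromal and B cell factor, at 149 against 307. Pparg, the main regulator of fat cell formation, was at 129 against 132 CPM, with a rho of 0.50 with Adipoq. Fabp4, a fat cell lipid binder, was counted in 3 CD61+ and 6 CD61- cells only, at 695 against 158 CPM, and leaving out single cells took its ratio between 0.683 and 18.7. In the set of adiponectin receptors and secretion helpers 2 of 6 were lower and 1 higher, with a median of -0.17. Adipor2 was at 44.3 against 111 CPM and Adipor1 at 56.1 against 64.8, the chaperone gene Erp44 at 60.8 against 73.7 and Gstk1 at 33.6 against 36.8.

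Partners of lipoprotein lipase and lipoprotein receptors had 2 of 13 lower and 2 higher, with a median of -0.24. Angptl4, an inhibitor of the lipase, was at 430 CPM in the CD61+ gate and 506 in the CD61- gate, with overlapping plates, and the receptor gene Lrp1 at 221 against 287. Apod, another apolipoprotein, was at 42.3 against 288 CPM and Pltp, a phospholipid transfer protein gene, at 67.6 against 108. The kallikrein and kinin list had 4 tested genes, 2 lower and 2 higher, with a median of 0.66. Serping1, the C1 inhibitor that also restrains kallikrein, was at 3189 against 6504 CPM, and Mme, a kinin-degrading peptidase, at 148 against 387. Cpe was at 163 against 16.2 CPM and the angiotensin-converting enzyme gene Ace at 20.2 against 3.99. Of 5 tested renin and angiotensin genes, 1 (Ace) was higher and 0 lower, with Atp6ap2 at 76.2 against 60.8 CPM, Enpep at 17.0 against 22.9 and Lnpep at 9.70 against 7.77.

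The acute-phase list around Hp had 2 of 10 lower and 1 higher, with a median of -0.48. Saa3, serum amyloid A3, was at 86.5 CPM in the CD61+ gate and 1022 in the CD61- gate, a ratio that ran from 0.0804 to 0.563 without single cells, and the complement gene C3 at 48.1 against 172. Serpina3g was at 513 against 1223 CPM with overlapping plates, and the ceruloplasmin gene Cp at 808 against 771. Of the glycerophosphodiesterase relatives of Gdpd2, Gde1 was higher, at 104 against 58.6 CPM, and Gdpd5 was at 0.978 against 1.88. For comparison, 7 of 9 CAR and niche markers were lower in both CD61+ plates and 0 higher, with a median of -0.93. Of 10 osteolineage markers, 0 were lower and 8 higher, with a median of 1.01. Of 5 tested fibroblast markers, 0 were lower and 4 higher, with a median of 4.95. The matrix protein gene Dcn was at 918 CPM in the CD61+ gate and 191 in the CD61- gate, and Gsn, an actin-severing protein gene, at 751 against 81.7. Summed over the 6 listed, fibroblast markers ran from 0.520 to 50317 CPM with a median of 521 in CD61+ cells, and from 0 to 2681 with a median of 189 in CD61- cells, where Clec3b was at 0. Their part in the members' levels was not tested.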

How the data were processed

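Single cells were sequenced by Smart-seq2, and the authors deposited expected counts per gene and cell, which are whole numbers and not normalised. Per the submitters' processing notes, kallisto 0.43.0, R 3.5.1 and mm10 were used; of the transcript annotation the sources used here say nothing. The deposited count of reads per cell equals the sum of the expected counts in 91 of 91 cells, and no 2 cells held identical values. CD61, CD200, CD51 and forward scatter are intensity values as deposited by the authors, on a linear scale, and 43 other columns of values per cell were not used.

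Counts were divided by the cell's total (CPM) or summed per gate and plate (CPM of sums). Genes needed 10 counts over the 4 CD61+ and CD61- plates and a count in 5 cells. A gene was called lower or higher when both CD61+ plates lay beyond both CD61- plates; a sum under 3 counts was raised to 3 for a log2 ratio. Intervals are exact at 95%: Poisson for levels, binomial for ratios and Clopper-Pearson for shares, with limits of 3 cells for a share of 0. Correlations used genes with a count in 20% of cells (19 cells). No cell was removed and no doublet caller was run. Genes outside the set were named as the 10 nearest and 5 most opposite to Adipoq, the 3 nearest to each other member, without mitochondrial, ribosomal, predicted and Rik genes, and the most abundant genes, at most 4, of every list. Members and lists were chosen with earlier results of these data known. Other settings tried were thinning to 507713 counts, scaling by edgeR 4.0.16 (TMM) or DESeq2 1.42.0 in R 4.3.3, all genes without the filter, CPM averaged over cells, cells with 1000000 counts or more, cells under 100 CPM of Cdh5, Ptprc, Laptm5 and Coro1a together, Pearson's r and leaving out plates or cells; cells with Cxcl12 at 1000 CPM or more and cells under 100 CPM of the endothelial and of the blood cell markers were added after seeing the data. Steps were tested on simulated data and run in Python 3.11.15 with numpy 2.4.6, pandas 2.3.3, scipy 1.17.1 and matplotlib 3.10.9.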

Additional observations from a re-analysis of the deposited data

Results flagged for a closer look

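The 3 cells whose title and gate label disagree entered no comparison, and all 8 members were found in them. Median CPM over the 3 cells was 1144 for Adipoq, 2285 for Lpl, 2769 for Apoe, 7136 for Hp, 622.8 for Kng1, 390.7 for Kng2, 1394 for Agt and 1399 for Gdpd2. In 1 of the 3 cells Adipoq was at 0 CPM while Lpl was at 1922 CPM and Gdpd2 at 1699 CPM. Surface CD61 intensity of these cells was 221 to 901, where CD61+ cells had 1567 to 3739 and CD61- cells 222 to 1573.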

How the results depend on the processing

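Direction held for the 8 log2 ratios of CD61+ over CD61- in all 112 alternative values, and 8 of 8 members stayed lower in both CD61+ plates under 5 alternatives, with 15.5% to 18.6% of all genes. It was 7 of 8 (16.2% of genes) without cells at 100 CPM of the endothelial or blood cell markers and 3 of 8 (14.9%) in cells rich in Cxcl12, both added after seeing the data. Values that moved by more than 1 SD of the 4 pairs of plates were: the mean of CPM over cells (Adipoq -0.65, Lpl -1.67, Kng2 -1.26), thinning (Adipoq -0.66, Lpl -1.67, Kng2 -1.28), cells with 1000000 counts or more (Adipoq -1.23, Kng2 -1.60), no cells at 100 CPM of the endothelial or blood cell markers (Adipoq -0.82, Lpl -1.38, Kng1 -0.58, Kng2 -1.25), and cells rich in Cxcl12 (Adipoq -0.20, Lpl -1.09, Apoe -0.30, Hp -0.65, Kng1 -0.31, Kng2 -0.60, Agt -0.033, Gdpd2 -0.30). Leaving out each plate or each cell gave -1.23 to -0.94 for Adipoq, -2.17 to -1.73 for Lpl, -1.34 to -0.84 for Apoe, -1.83 to -1.16 for Hp, -1.40 to -0.61 for Kng1, -1.62 to -1.33 for Kng2, -1.23 to -0.37 for Agt and -1.36 to -0.57 for Gdpd2. Of these, Hp at -1.16 and Kng1 at -0.61, both without CD61- plate 1, also moved by more than 1 SD. So did the values without single cells at -1.23 for Adipoq, -2.17 for Lpl, and -1.62 and -1.33 for Kng2. Of 32 alternative shares of cells, 1 moved: Lpl in CD61+ cells at 10 CPM, 61.5%.

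Of 264 alternative correlations, 14 moved and 3 reversed. In cells rich in Cxcl12, rho with Cxcl12 was 0.15 for Adipoq, 0.56 for Lpl, 0.35 for Apoe, 0.47 for Kng1, 0.52 for Kng2 and 0.30 for Agt, and rho with Alpl was -0.54 for Lpl, -0.55 for Hp, -0.33 for Agt and -0.49 for Gdpd2; the median over 28 pairs was 0.37. Kng2 with Cxcl12 was 0.82 in cells with 1000000 counts or more and 0.76 to 0.81 with plates left out. Pearson's r on log2(CPM + 1) was -0.051 for Agt with Alpl, 0.041 for Gdpd2 with Alpl (reversed) and 0.020 for Gdpd2 with Spp1 (reversed), and on log2(CPM + 10) it was -0.031 for Gdpd2 with Alpl. With plates left out, Apoe with Alpl ran from -0.13 to 0.0094, reversed without CD61+ plate 2. The cause was not tested. No paired analysis was possible because the labels name no animal and the plate numbers tie no CD61+ plate to a CD61- plate. Where a share was 0 in 18 or 20 cells, the number of cells sets its limit, and with 1 sample per gate no spread between animals can be given.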
